A study of Rattus norvegicus with 98 samples.

Results

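The centromedial amygdala (CMA) comprises the central and medial nuclei of the amygdala, and its response to the antidepressant fluoxetine was compared here in 4 H3K27ac peak lists of the 94 in the series. The members were chosen by their titles, as the lists named Sham-CMA and FT-CMA with replicates 1 and 2, which gave 2 libraries against 2. The animals were male Long-Evans rats without a stress model. Rats of the FT group drank fluoxetine at 18 mg/kg per day for 6 weeks from 2 months of age, and rats of the Sham group drank water only. Each library was made from CMA micropunches pooled over several rats, so animal-to-animal variation was averaged within a library and a replicate was a pool. The 25 regions of the series were punched from the same pools of rats.

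H3K27ac is the acetylated form of lysine 27 of histone H3, and it marks the nucleosomes that flank active promoters and enhancers. A peak is a stretch of genome where immunoprecipitated fragments pile up above background, so a list of peaks is a map of active regulatory DNA in a tissue. Fluoxetine is a selective serotonin reuptake inhibitor. The central nucleus is a main output station for fear and autonomic responses, and the medial nucleus relays olfactory and social signals to the hypothalamus. In tissue punches, fewer cells with an active site and a weaker mark per cell cannot be told apart.

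The Sham lists held 38423 and 40660 peaks (replicates 1 and 2, the order kept throughout) and the FT lists held 48863 and 53716. Lists of the whole series ran from 19378 to 54505 peaks. Read totals were not given in the files, so sequencing depth is unknown and no counting interval was computed. On lists cut to the shortest of the series, the window overlap (Jaccard index, shared windows over all windows) between CMA libraries averaged 0.72, against 0.644 with ventral dentate gyrus (venDG) and 0.637 with basolateral amygdala (BLA), the next regions in order. Each of the 4 CMA libraries had the other 3 CMA libraries as its nearest neighbours. Marker genes were not checked, because the lists name no genes and an annotation of their genome build, Rn5, was not used here. One list elsewhere in the series, the single Sham list of the habenula (HB), stood apart, with a lowest overlap of 0.000667 with a CMA library.

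Acetylated territory was broader in both FT lists than in either Sham list. Covered length was 57.5 and 62.6 Mb for the Sham libraries and 79.1 and 88.2 Mb for the FT libraries. Both FT values lay above both Sham values, and the mean was 83.6 ± 6.46 Mb in FT against 60.1 ± 3.66 Mb in Sham (SD, n = 2), a log2 ratio of 0.48. Peak number had a log2 ratio of 0.38, with 51290 ± 3432 peaks in FT and 39542 ± 1582 in Sham (SD, n = 2). Exact permutation tests of both ratios gave p = 0.333 (two-sided), the smallest value that 2 libraries against 2 can give, so neither difference could pass a threshold of 0.05. Among the 21 regions with 4 lists, CMA ranked 9 by the log2 ratio of peak number and 9 by that of covered length. BLA had a log2 ratio of 0.44 for peak number and the bed nucleus of the stria terminalis (BNST) 0.55.

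The peaks themselves were wider as well. The median width was 1500 bp in both Sham lists and 1600 bp in both FT lists, and the mean width was 1495 and 1541 bp in Sham against 1618 and 1642 bp in FT. The groups did not overlap, with a log2 ratio of 0.09 for the median and 0.10 for the mean (exact permutation p = 0.333, two-sided, n = 2, the smallest possible). The difference grew when each list was reduced to its 38423 peaks of highest maxScore, the score that the peak caller DFilter gives a peak (cut lists). Mean widths were then 1495 and 1587 bp in Sham and 1807 and 1889 bp in FT, a log2 ratio of 0.26. The cut left Sham replicate 1 whole and took mostly FT peaks of low maxScore, which were narrower than the rest. The growth therefore follows from the cutting and does not add to the width difference of the full lists. Peaks of at least 3 kb made up 0.851% and 0.957% of the full Sham lists and 1.29% and 1.5% of the full FT lists.

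**Figure D1:**
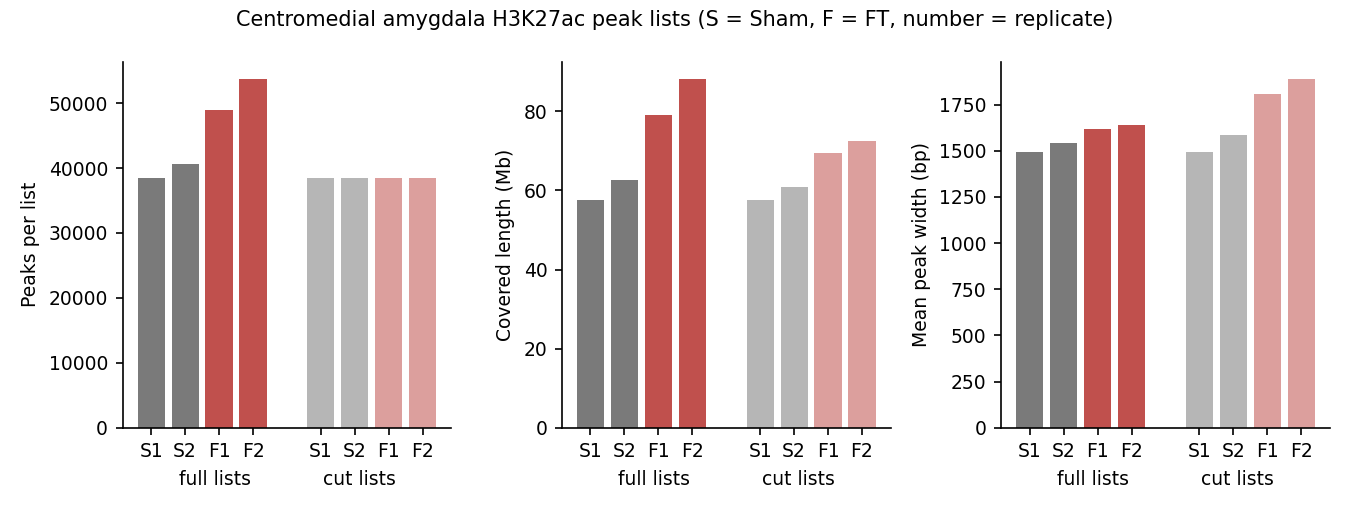
Peaks per list, covered length in Mb and mean peak width in bp for the 4 CMA libraries, on full lists and on lists cut to 38423 peaks by maxScore. Each bar is 1 library, S for Sham and F for FT. Both FT bars stand above both Sham bars in every panel except the cut peak number, which the cut made equal.

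Peak scores moved with treatment too. The median maxScore was 79.1 and 87.8 in the Sham lists and 119 and 106 in the FT lists. The lowest maxScore listed was 46.3 and 49.9 in Sham and 64.2 and 55.7 in FT, and the share of peaks at the upper bound of the listed −log10 p, 200, was 1.1% and 1.37% in Sham against 2.23% and 2.69% in FT. Between the groups, scores thus moved together with peak number and width. Within FT they did not: replicate 1 had the higher median and lowest maxScore but fewer and, on average, narrower peaks. The part of the overall shift between groups in the differences below was not tested.

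To locate the differences, the genome was divided into 1 kb windows, and a window was counted as occupied in a list when peaks covered at least 50% of it. At least 1 CMA list occupied 101239 windows, and all 4 lists occupied 46085 of them, 45.5%. On full lists 12043 windows, 11.9% of those occupied, were gained, that is, occupied in both FT lists and in neither Sham list. The opposite pattern, lost, was seen in 512 windows, 0.506%. Of the windows that separated the treatments, 95.9% were therefore gained. Dividing the same 4 lists by replicate number separated 2917 windows, and the crossed division of FT replicate 1 with Sham replicate 2 against the rest separated 2331. The treatment division thus separated more windows than either of the other ways of dividing the 4 libraries, by 2.26 on the log2 scale over their mean (exact permutation p = 0.333, one-sided, the smallest value that 3 divisions allow).

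The excess of gained over lost windows was smaller on shortened lists. On cut lists, equal in peak number, 7395 windows were gained and 1286 lost, 8.3% and 1.44% of 89078 occupied windows, and 85.2% of the separating windows were gained. The cut FT lists still covered 69.4 and 72.6 Mb against 57.5 and 61.0 Mb in Sham. When the lists were instead cut by maxScore to the same covered length of 57.5 Mb, 4142 windows were gained and 3380 were lost. These were 5.25% and 4.28% of 78956, so that 55.1% of the separating windows were gained. The lists then occupied 57262 and 57438 windows in Sham and 57456 and 57387 in FT. This cut thus largely sets the near balance of gained and lost windows, and no direction is drawn from that balance. The treatment division still separated more windows than the other divisions. Its log2 excess over them was 1.81 on cut lists and 1.89 at equal covered length. The replicate and crossed divisions held 2101 and 1952 windows at equal length. Both cuts took more peaks from the FT lists than from the Sham lists, and so treated the groups differently. Of the windows lost at equal length, 88.9% were occupied in at least 1 FT list at full length. The excess on shortened lists therefore cannot show a separation apart from list length, and the part of the cutting in it was not tested.

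**Figure D2:**
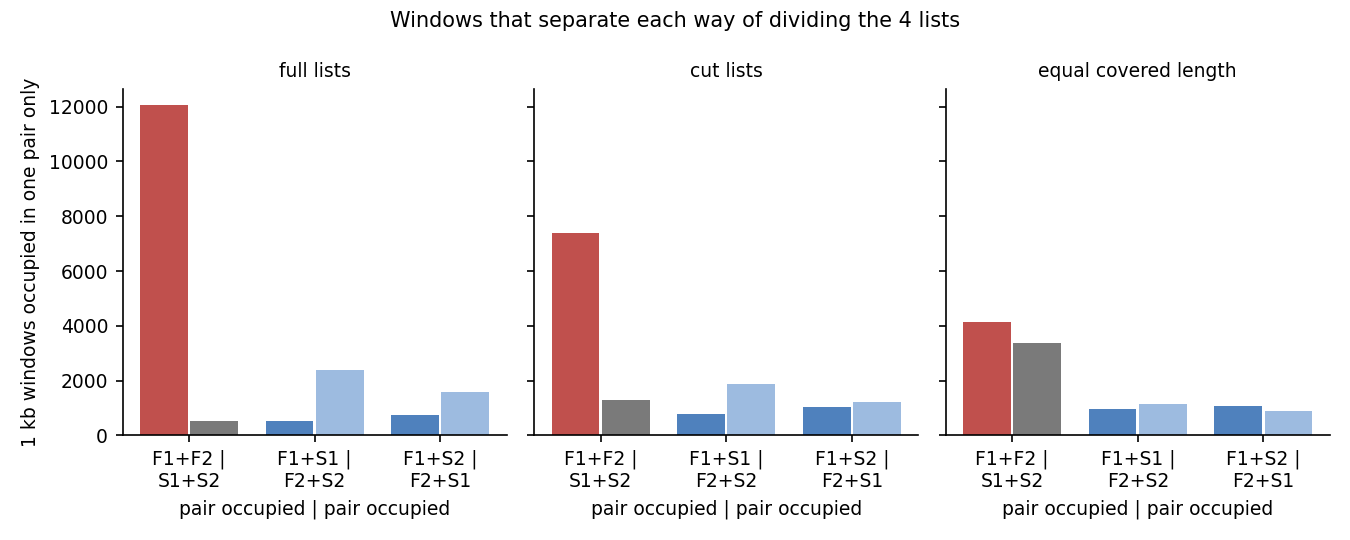
Number of 1 kb windows occupied in both lists of one pair and neither list of the other, for the 3 ways of dividing the 4 CMA libraries into pairs, on full lists, on lists cut to 38423 peaks and on lists cut to the same covered length. The left bar of each group counts windows of the pair named first. The treatment division holds 12043 gained and 512 lost windows on full lists but 4142 and 3380 at equal covered length, a near balance that this cut largely sets. In every panel the treatment division separates more windows in all than the other divisions.

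How far the full and cut comparisons share windows depends on which lists were shortened. The cut left Sham replicate 1 whole and took few peaks from Sham replicate 2, whereas both FT lists lost many, so a window gained on cut lists could hardly fail to be gained on full lists. The full-list comparison called 7158 of the 7395 (96.8%), and the other 237 were occupied in 1 Sham list at full length. Of the 1286 windows lost on cut lists, 457 (35.5%) were also lost on full lists, 478 were occupied in 1 FT list at full length and 351 in both. The difference between these shares is set by the cutting and says nothing of stability. Windows that kept their direction on full lists, on cut lists and at equal covered length numbered 3927 gained and 376 lost.

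Overlap between lists was highest for the FT pair. On cut lists, the Jaccard index was 0.768 for the FT pair, 0.68 for the Sham pair and 0.637 to 0.684 for the 4 pairs of an FT and a Sham list. The FT pair stood above every mixed pair, whereas the Sham pair lay within the range of the mixed pairs, its value exceeded by that of Sham replicate 2 with FT replicate 2. On full lists the FT pair had 0.743, the Sham pair 0.676 and the mixed pairs 0.581 to 0.653.

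Changed windows lay in part at the edges of peaks that both treatments had. On full lists, a Sham peak touched 5495 of the gained windows (45.6%) without filling 50% of them, and 3771 (31.3%) were more than 10 kb from any Sham peak. The edge share of lost windows on full lists was higher, 56.4%. On cut lists the order was reversed, with an edge share of 63.0% for gained and 17.0% for lost windows, and with 44.8% of lost windows beyond 10 kb from any FT peak. At equal covered length, 82.8% of gained windows but 5.21% of lost windows were partly covered in the other treatment. Of those 3380 lost windows, 88.9% were occupied in at least 1 FT list at full length, whereas 5.19% of the 4142 gained windows were occupied in a Sham list at full length. This contrast follows from the cutting, which kept all 38423 peaks of Sham replicate 1 and 34422 of Sham replicate 2 but 29276 and 28058 of the FT lists, so that mainly FT peaks could reappear. In the replicate and crossed divisions the partly covered share ran from 55.8% to 65.6% on full lists and from 35.9% to 59.6% on cut lists. The edge share of gained windows thus lay below that range on full lists and above it on cut lists, and no direction is drawn from it.

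**Figure D3:**
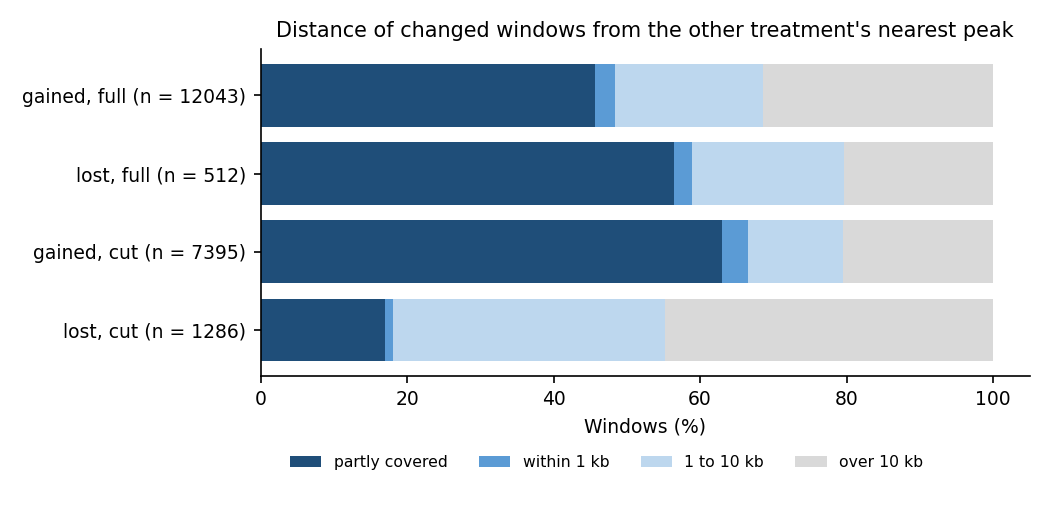
Share of gained and lost CMA windows (percent) that a peak of the other treatment covered in part, or that lay within 1 kb, 1 to 10 kb or over 10 kb from its nearest peak, on full and cut lists. The other treatment covered in part 45.6% of gained and 56.4% of lost windows on full lists, but 63.0% and 17.0% on cut lists, where the order is reversed.

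The same contrast appeared for whole elements, defined as stretches joined from overlapping or touching peaks of the 4 lists. On full lists there were 60776 elements, of which 31712 (52.2%) held a peak of all 4 libraries. Elements with a peak in both FT lists and none in Sham numbered 6366 (10.5%), and those with a peak in both Sham lists and none in FT numbered 317 (0.522%). On cut lists the counts were 1900 and 1342, 3.83% and 2.71% of 49566 elements. At equal covered length, where the Sham lists kept more peaks than the FT lists, the direction turned. The counts were then 361 and 3439, 0.829% and 7.9% of 43521 elements. The FT-only elements of full lists had a median width of 1311 bp, against 2066 bp for elements shared by all 4. Sham-only elements were narrower still, at 1100 bp. An element is joined from its peaks, so peaks of more lists can only make it wider.

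Changed windows lay mostly in short stretches. The gained windows of full lists formed 11059 stretches, of which 91.2% were a single window and 7 were 3 windows long, the longest length seen. The 512 lost windows formed 505 stretches, none longer than 2 windows. Peak width limits the length of a stretch, and stretches of constant windows were not measured. These lengths therefore cannot tell scattered changes from changes in domains. Gained windows were found in 2244 of the 2650 megabases that held any occupied window. Across the 20 autosomes, the share of occupied windows that were gained ran from 9.58% on chromosome 20 to 13.7% on chromosome 2 on full lists, and the X chromosome had 12.1%. On cut lists the X chromosome had 7.71% gained, within the autosomal range of 6.95% to 9.4%. The megabases with the most gained windows on full lists were chr3:180000001-181000000 and chr7:50000001-51000000 in the Rn5 build, with 22 windows each. In the chromosome 3 megabase 67 of 125 occupied windows were present in all 4 lists, and in the chromosome 7 megabase 9 of 73 were.

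Gained and lost windows belonged to weaker peaks than constant windows, an order that the sorting itself favours. Strong, wide peaks tend to be called in all 4 lists, whereas weak or narrow ones are more easily missed in some. Ranks for the windows of the replicate and crossed divisions are not given here. No effect of treatment is therefore drawn from this contrast in score, width or tag count. The peaks behind gained windows on full lists had a median maxScore percentile of 35.7 in FT replicate 1 and 39.2 in FT replicate 2, with 50 being the middle of a list. Peaks behind lost windows stood at 26.8 and 27.6 in the Sham lists. Windows occupied in all 4 lists had medians of 69.2 to 77.8, and their peaks had median widths of 1800 to 2100 bp, against 1400 and 1500 bp behind gained and 1200 bp behind lost windows. Of the gained windows, 3.2% and 3.37% came from the top 10% of their FT list by maxScore, against 17.9% to 24.5% of constant windows.

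The second value that the lists give for a peak is the normalised tag count, a whole number between 1 and 38 in CMA with medians of 4, 4, 5 and 4. Gained windows had a median tag count of 4 in both FT lists, at the percentiles 31.5 and 38.2. Lost windows had a median of 3 in both Sham lists, at 22.5 and 16.2. Windows present throughout had medians of 4 to 6. Windows of the cut-list comparison were also ranked within the full lists. Those gained stood at maxScore percentiles of 50.2 and 52.8 and tag-count percentiles of 55.1 and 38.2. Those lost stood at maxScore percentiles of 23.4 and 24.8, and windows in all 4 cut lists at 70.6 to 78.9. The cut leaves out the lowest peaks of the FT lists, which raises the full-list percentiles of the windows gained. Percentiles within the cut lists were not computed, so no change in strength is drawn from this rise.

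At the 31712 shared elements, the ranks by maxScore were alike in all 4 libraries, with Spearman correlations across elements of 0.948 for the FT pair, 0.894 for the Sham pair and 0.865 to 0.89 for mixed pairs. Elements are not independent replicates, so these values are descriptions. Both FT ranks lay above both Sham ranks at 7724 elements (24.4%) and below them at 7990 (25.2%), 15714 in all. The replicate and crossed divisions gave 8201 and 7778. The median shift in rank between the treatment means was 6.47 percentile points, while Sham replicates differed from each other by a median of 6.96 and FT replicates by 4.93. Ranks by tag count separated the treatments less clearly. They gave 13030 elements in the treatment division against 10549 in the crossed and 8120 in the replicate division, and the median shift of 5.05 points was smaller than the 10.1 points between Sham replicates.

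A limma fit of the tag counts at these elements, quantile normalised on the log2 scale, called 697 higher in FT and 1925 lower at an adjusted p below 0.05, 2.2% and 6.07% of elements. Most of these calls sat on tied whole numbers. In 2069 of the 2622 called elements (78.9%) the whole-number tag counts were identical within both pairs of replicates, and in 1495 elements called lower the count was the same in all 4 libraries before normalisation. The 6 elements with the lowest p among those called lower all had a tag count of 3 in every library. The call was lost with median centring in place of quantile normalisation (0 higher, 0 lower, against 665 and 2186 at an unadjusted p below 0.05). It was also lost when elements with low tag counts were left out (0 and 0, with 1658 and 988 unadjusted), and with the replicate block 0 were higher and 859 lower. Without normalisation 11344 were higher and 4 lower. For these reasons no element is described by its tag-count call.

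The unrounded maxScore was fitted in its place, a choice made after seeing the tag counts. After quantile normalisation, limma called 435 elements higher in FT (1.37%) and 209 lower (0.659%). These differences are relative to the whole list, since quantile normalisation gives the libraries the same distribution. Few calls were made without either FT library: leaving out FT replicate 1 left 2 higher and 5 lower, and leaving out FT replicate 2 left 2 and 4. Without Sham replicate 1 they were 1972 and 1477, and without Sham replicate 2 they were 1956 and 1446. With the replicate number as a block they were 1100 and 678. In that fit and in those without a Sham library, limma gave elements of like mean score the same variance. Median centring gave 512 higher and 748 lower, which turned the balance of directions.

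Called elements were of above-middle strength, with median maxScore percentiles of 71.7 for those higher and 72.3 for those lower, against 48.4 for all shared elements. Median log2 differences after quantile normalisation were 0.65 and -0.65. Of those higher, 99.1% were also wider in FT, and of those lower 53.1% were wider, compared with 91.1% of all shared elements. Both values come from the same peaks and are not separate evidence.

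The element with the lowest p was chr20:5251071-5253270 (Rn5), where maxScore was 80.2 and 87.4 in the Sham lists and 318 and 288 in the FT lists. Both FT values were far above both Sham values (log2 difference after quantile normalisation 1.14, SE 0.16, limma adjusted p = 0.00461). Scores of named elements are raw, so their ratios differ from the log2 differences given beside them. Its tag count was 3 in both Sham lists and 8 and 7 in FT, and peaks covered 1300 and 1600 bp in Sham but 2100 and 2200 bp in FT. In the other regions it carried a peak in 11 Sham lists and 38 FT lists. A similar rise was seen at chr2:51878002-51880001, with a maxScore of 59.2 and 70.6 in Sham and 256 and 222 in FT (log2 difference after normalisation 1.18, SE 0.19, limma adjusted p = 0.0113). There the covered length was 1200 bp in both Sham lists and 2000 and 1900 bp in FT, and 17 Sham and 23 FT lists of other regions had a peak.

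The other 4 of the 6 elements with the lowest p among those higher were strong, broad peaks in every library. The element chr7:76019002-76021401 had a maxScore of 245 and 322 in Sham and 724 and 635 in FT, with covered lengths of 2200 to 2400 bp in all 4. The element chr8:47396121-47398539 had 174 and 190 in Sham and 507 and 466 in FT. The element chr6:134027819-134030367 had 236 and 269 in Sham and 611 and 571 in FT, and chr2:50074102-50076601 had 220 and 208 in Sham and 532 and 540 in FT. At all 4, at least 39 Sham lists of other regions also held a peak, and the adjusted p lay between 0.00461 and 0.0113 (limma).

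Among the 6 elements with the lowest p on the lower side, only chr10:65233702-65235434 had lower raw scores in both FT lists. They were 93.8 and 132 in Sham and 65.5 and 80.3 in FT (log2 difference after normalisation -1.25, SE 0.21, limma adjusted p = 0.0121). The covered length of this element was 1500 and 1700 bp in Sham and 900 and 1200 bp in FT. The other 5 had overlapping raw scores that fell relative to the rest of the list. At chr1:3768741-3771002, for example, maxScore was 217 and 335 in Sham and 219 and 242 in FT (log2 difference after normalisation -0.92, SE 0.13, limma adjusted p = 0.00571). At chr6:82025341-82027783 it was 359 and 428 in Sham and 380 and 398 in FT, between the Sham values.

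Width at shared elements was mostly greater in FT on the unscaled lengths. Mean covered length per element was 1622 and 1702 bp in Sham and 1877 and 1960 bp in FT. Both FT lists were wider than both Sham lists at 18224 elements (57.5%), and narrower at 334 (1.05%). By contrast, dividing by replicate number made both first replicates wider at 426 elements and both second replicates wider at 3035, and the crossed division gave 748 and 1620. The median log2 difference was 0.17. The limma fit of log2 widths called 0 elements (0.0%) in either direction, the lowest adjusted p being 0.073, although 9243 were wider and 96 narrower at an unadjusted p below 0.05. With quantile normalisation, which gives the libraries the same distribution of widths, 0 were again called, and the unadjusted counts were even, 2045 wider and 2135 narrower, with a median log2 difference of -0.02 and 43.9% of elements above 0. The shift in width was thus not seen under this scaling. Widths come in steps of 100 bp, so many pairs of libraries were tied. Among the elements of higher tag count alone 1232 were called wider and 11 narrower, and leaving out a Sham library gave up to 7761 wider.

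The mean difference in width was greater at weaker elements. Shared elements were ranked by mean maxScore and divided into 4 equal classes of 25%. In the weakest class, the mean covered length was 1102 and 1186 bp in Sham and 1382 and 1522 bp in FT, a mean log2 difference of 0.36. The mean log2 difference was 0.29 and 0.18 in the next classes and 0.11 in the strongest, where the lengths were 2136 and 2188 bp in Sham and 2308 and 2342 bp in FT. The mean lengths of both FT lists exceeded those of both Sham lists in every class. The share of elements at which both FT lists were wider than both Sham lists did not follow this order: it was lowest, 50%, in the weakest class and 59.1%, 61.3% and 59.4% in the next ones.

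**Figure D4:**
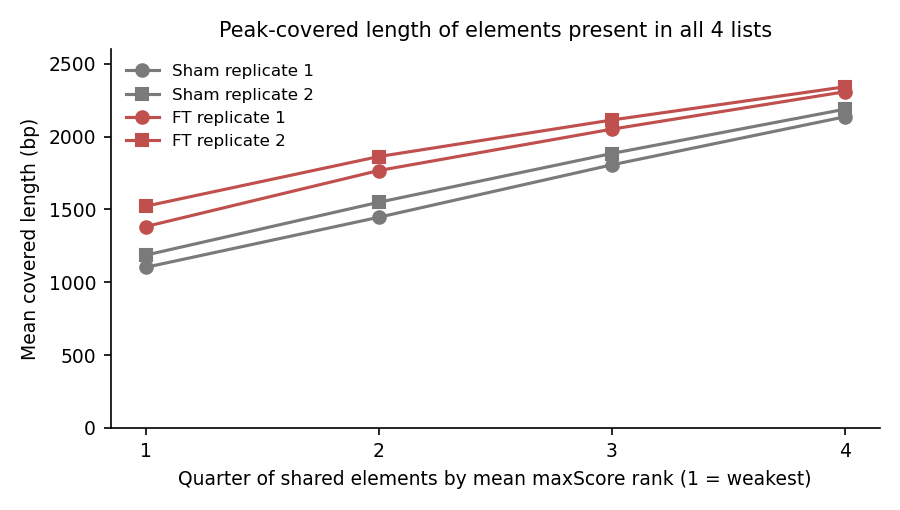
Mean length in bp covered by peaks at elements present in all 4 CMA lists, by class of mean maxScore rank (4 classes of 25%, class 1 the weakest), with 1 line per library. Both FT lines run above both Sham lines in every class, and the gap narrows from a mean log2 difference of 0.36 in the weakest class to 0.11 in the strongest.

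The lowest width p in the wider direction was that of chr18:27485708-27488840, which peaks covered over 1300 bp in both Sham lists and over 3000 and 3100 bp in FT (log2 difference 1.23, SE 0.02, limma adjusted p = 0.073). At chr12:38309207-38311937 the lengths were 1700 bp in both Sham lists and 2600 bp in both FT lists. At chr1:228813811-228816640 and chr3:153392138-153394801 they were 1800 bp in Sham and 2500 bp in FT, identical within each pair. In the narrower direction, chr12:49381607-49384507 had 2700 and 2800 bp in Sham and 2000 bp in both FT lists (log2 difference -0.46, SE 0.02, limma adjusted p = 0.073). At chr11:89519679-89522427 the lengths were 2600 bp in both Sham lists and 2300 bp in both FT lists, and at chr1:143101267-143103502 they were 2200 and 2000 bp. None of these passed the threshold.

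Most changed windows were active in other brain regions, as were most CMA windows of any kind. A window counted as active in another region when at least 1 of its lists occupied it. Of the 7395 windows gained on cut lists, 7110 (96.1%) were active in at least 1 of the other 24 regions, with a median of 11 regions, and 285 (3.85%) in none. Of the 1286 lost windows 1271 (98.8%) were active elsewhere, with a median of 17 regions. Over all windows of any cut CMA list the share was 97.9% and the median 21 regions, so the shares of changed windows were near that of CMA windows in general. Among the 44229 windows present in all 4 cut lists the share was 99.9% and the median 24 regions. Activity in every other region was seen for 6.32% of gained, 9.95% of lost and 67.0% of constant windows. On full lists the share active elsewhere was 94.5% for gained and 98.0% for lost windows, and 665 gained and 10 lost windows were found in CMA alone.

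Restricting the other regions to their 45 Sham lists, an alternative added after seeing the data, left 88.5% of gained and 96.7% of lost windows active elsewhere, against 95% of all CMA windows (84603 of 89078). Gained windows seen elsewhere in FT lists only numbered 568 (7.68%), and those seen in Sham lists only numbered 38 (0.514%). Over all windows of any CMA list these shares were 2.9% and 0.507%. A gained window was occupied on average in 9.46 of the 45 Sham and 17.5 of the 45 FT lists of other regions, a lost window in 15.8 and 21.2, and a constant window in 32.7 and 38.9. Lists of other regions were also longer in FT in most regions, so the FT excess at gained windows must be read beside that of all windows.

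Among the 20 other regions with 4 lists, occupancy of gained windows was higher in FT than in Sham lists in 19, by a median of 15.1 percentage points. Over all windows of any CMA list it was also higher in 19, by a median of 11.1 points. The exception in both was venDG, at -0.6 and -4.7 points. The extreme at the other end was prelimbic cortex (PLC), at 43.6 and 41.4 points. In BLA, 21.2% of CMA gained windows were occupied in Sham and 57.8% in FT, a difference of 36.5 points against 19.6 for all CMA windows. In BNST the values were 17.9% and 45.1%, 27.2 points against 20.6. Every region was punched from the same pools of rats, so these differences are not independent of those in CMA.

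**Figure D5:**
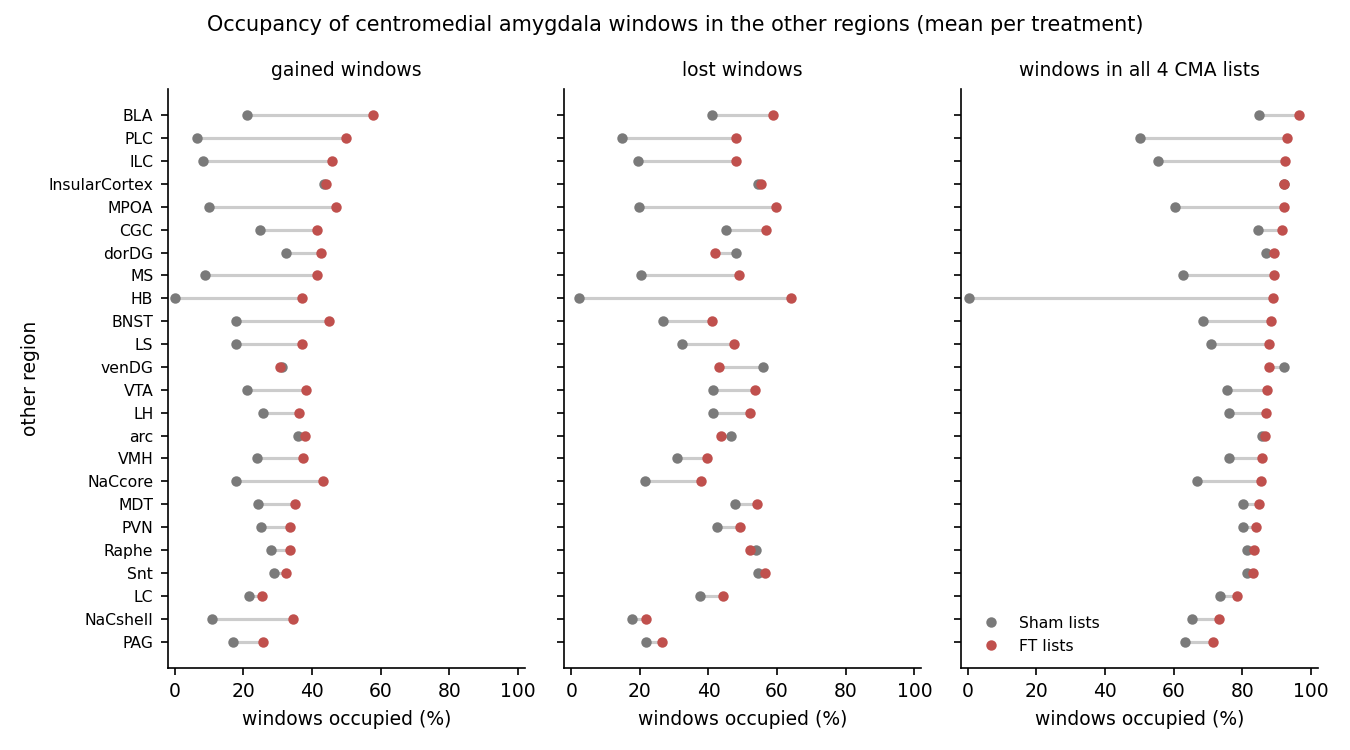
Percent of the CMA windows gained, lost or present in all 4 lists (cut lists) that each other region occupied, as the mean of its Sham lists and the mean of its FT lists. In BLA 21.2% of gained windows were occupied in Sham and 57.8% in FT, whereas venDG differed by -0.6 points, and the HB Sham point near 0 is the list that stood apart.

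Gain in CMA coincided with gain elsewhere at some windows. On lists cut within each region, 4099 of the 7395 CMA gained windows (55.4%) were also gained in at least 1 of the 20 other regions, compared with 39.5% of all windows of any CMA list. In 5 or more regions the shares were 2.79% and 1.2%. BLA shared the most, with 1030 of the CMA gained windows (13.9%) gained there too, against 5.65% of all CMA windows. In BNST the values were 553 windows, 7.48% and 4.59%. The opposite direction, gained in CMA and lost elsewhere, was found for 7.53% of gained windows against 11.3% of all. Of the CMA lost windows, 412 (32.0%) were lost in another region, against 11.3% of all windows of any CMA list. The most were lost in the dorsal dentate gyrus (dorDG), 8.01% against 1.65% of all CMA windows. Gain in another region was found for 350 lost windows (27.2%), below the 39.5% of all CMA windows. These are overlaps across regions of the same pooled rats and are given without a test.

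Single sites show what these windows looked like. Stretches gained on both full and cut lists numbered 6463, and in 1837 of them no base was covered in either Sham list. The 8 of these with the highest tag-count ranks were all 1 window long. At chr5:176165001-176166000, FT peaks of 3600 bp had a tag count of 11 in both libraries and maxScores of 198 and 210. The nearest Sham peak was 52 bp from the window. At chr12:43302001-43303000, FT peaks of 5000 and 4900 bp had tag counts of 11 and 10 and maxScores of 236 and 220. A Sham peak lay 407 bp from that window, and 4 Sham and 12 FT lists of other regions occupied it. At chr3:2376001-2377000, FT peaks of 3000 and 3100 bp had tag counts of 10, and 17 Sham and 28 FT lists elsewhere occupied it. At chr10:75802001-75803000, FT peaks of 4000 and 3300 bp occupied the window, and the nearest Sham peak was 1 bp from the window. At all 4 the FT peaks were at least 3000 bp wide, and a Sham peak lay within 407 bp of the window.

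The other 4 were weaker by score. At chr8:26395001-26396000 the tag counts were 16 and 13, the percentiles 99.1 and 98.1, while maxScore stood at the percentiles 49.1 and 32.1, and the nearest Sham peak was 2101 bp away. A lost window, chr8:26384001-26385000, lay 10 kb from it, with tag counts of 6 and 7 in Sham. At chr5:164132001-164133000 tag counts were 11 in both FT lists, and 21 Sham and 30 FT lists of other regions occupied the window. At chr19:11557001-11558000 tag counts were also 11, and at chr9:92651001-92652000 they were 12 and 10, where 10 Sham and 8 FT lists elsewhere occupied the window. All 8 were therefore active in at least 8 other regions.

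The longest gained stretches on both kinds of list were 3 kb, and of the 5 with that length the 3 with the highest tag-count percentiles are given. The stretch chr18:27392001-27395000 lay on the same chromosome as the first element named for width, on FT peaks of 4100 and 4600 bp with tag counts of 7, and lists of all 24 other regions, 27 Sham and 44 FT, occupied it. The stretch chr10:61844001-61847000 had tag counts of 7 and 6 and was occupied in 11 Sham and 38 FT lists elsewhere. The stretch chr14:83816001-83819000 had tag counts of 6 and 5 and was occupied in 5 Sham and 18 FT lists. A Sham peak touched an edge of each.

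Lost stretches on both kinds of list numbered 451, and 172 had no base covered in FT. Those with the highest tag counts were lower than the gained ones, with tag counts of 5 to 7 in the Sham lists, and at 7 of the 8 a Sham peak was narrower than 2200 bp in both libraries. At chr2:41447001-41448000 the counts were 5 and 6 on peaks of 700 and 800 bp, the nearest FT peak was 4501 bp away, and 36 Sham and 33 FT lists of other regions occupied the window. At chr5:146887001-146888000 the counts were 5 and 5, and the window was active in all 24 other regions. The narrowest activity was at chr1:16606001-16607000, with tag counts of 5 and 5, where 0 Sham and 2 FT lists elsewhere, in nucleus accumbens core (NaCcore) and PLC, occupied the window. The remaining 4, at chr5:177088001-177089000, chr18:64623001-64624000, chr1:50936001-50937000 and chr4:216957001-216958000, had counts of 5 or 6 and were occupied in 8 to 22 other regions.

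The longest lost stretches were 2 kb, and of the 6 with that length 3 are given by the same order, ties by position. At chr1:80246001-80248000 the Sham peaks of 3100 and 5100 bp had tag counts of 7 and 8, and an FT peak touched the edge. The stretch chr11:53015001-53017000 was the most isolated of those named, 263078 bp from the nearest FT peak, with tag counts of 3 and 3 and maxScores of 63.8 and 79.8, and 1 Sham and 2 FT lists elsewhere occupied it, in HB, insular cortex and lateral septum (LS). At chr19:39169001-39171000 the counts were 3 and 3, and all 24 other regions were active there.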

How the data were processed

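H3K27ac ChIP-seq peak lists of the centromedial amygdala (2 Sham, 2 FT) were analysed beside the lists of the other regions. The authors aligned reads to the rat genome (rn5 and BWA per the submitters' processing notes; Rn5 from Ensembl in the methods) and called peaks with DFilter in each library separately. Tool versions were not stated there. Per the file headers, the deposited lists give for each peak its position, a maxScore (score), a −log10 p, a normalised tag count (a score in whole numbers, whose scaling is not given) and a false discovery rate in percent, 0 for every peak. Input libraries were not analysed here, and other regions' peaks on unplaced scaffolds were left out. Peaks in the authors' consensus set and their differential calls were not used here.

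A 1 kb window was occupied when peaks covered at least 50% of it. Lists were used in full, cut by maxScore to 38423 peaks, and cut to equal covered length. Gained and lost windows were counted, and treatment was compared with the other 2 ways of dividing the 4 libraries (exact permutation). Elements shared by all 4 lists were tested with limma 3.58.1 in R 4.3.3 (log2 values, no pseudocount, trend, Benjamini-Hochberg). The fit was tested on simulated data with a moderate and a large change planted. With quantile normalisation it made few false calls at the moderate change but many more at the large one, and without quantile normalisation few at either. The moderate size was taken as the pass criterion only after the large one had failed it. Other steps used Python 3.11.15. The replicate number marks samples processed in parallel in the study's methods. Replicate differences in Sham and FT had a correlation of 0.012 over windows of cut lists and 0.019 over maxScore at shared elements. The exact tests treated the 4 libraries as exchangeable and did not use this pairing. The low correlations do not show that pairing has no effect. No 2 libraries shared an identical peak. With 2 pools a group, no p-value reaches beyond these libraries. The exact p-values only place the treatment division among the other divisions. The limma p-values do not rest on the spread at each element alone, since limma draws it toward a trend over all elements. In the main maxScore fit that trend weighed as much as 19.8 degrees of freedom. Sites were named by rule: the 8 stretches with the highest lower tag-count percentile and no base covered in the other treatment, the 3 longest stretches (ties by that percentile, then by position), and the 6 (by tag count or maxScore) or 3 (by width) elements of lowest p in each direction; chr1 and chr3 elements of tied width are both given. Members and lists were chosen with earlier results of these data known. An Rn5 annotation was not used here, so sites are given by coordinate without genes or sequence.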

Additional observations from a re-analysis of the deposited data

How the results depend on the processing

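Of 139 recomputed values, 59 stayed close to the reported one (a count within 1.5 times, a log2 ratio of the same sign, a share within its 95% exact binomial interval) and 80 moved; in no alternative did a log2 ratio change sign. With 1 library left out in turn, windows gained ran from 16418 to 23615 and lost from 853 to 2958 on full lists, and from 11614 to 13953 and 2028 to 5151 on cut lists (each omission moved at least 1 of these counts by over 1.5 times); fewer libraries have to agree in these counts. The log2 excess of the treatment division ran from 0.65 to 1.08 on full and from 0.45 to 1.04 on cut lists. With 1 library left out, this excess compares divisions of 1 library against 2, so its size cannot be set beside that for 4 libraries. Elements with higher and lower tag counts ran from 1456 to 6589 and from 2301 to 17111, those with higher and lower maxScore from 2 to 1972 and from 4 to 1477, and wider and narrower elements from 0 to 7761 and from 0 to 304, the lone library of a group being assumed to vary like the others. The share of changed windows active elsewhere ran from 94.0% to 97.6% (gained) and from 93.5% to 99.3% (lost).

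On full lists, peaks with a −log10 p of at least 6 left 287 windows lost. Windows of 5 kb gave 654 gained and 4 lost on full lists and 644 and 5 on cut lists, windows with any covered base 18494 and 824 on full lists and 2627 lost on cut lists, and windows holding a peak centre 6894 and 1284 on full and 2823 and 2033 on cut lists. Lists cut to 10000 peaks gave 2035 gained and 845 lost, and equal covered length 4142 and 3380. The share of gained windows active elsewhere was 96.8% on lists cut by tag count, 99.7% at 10000 peaks, 97.4% at equal covered length, 90.7% when 2 lists of a region were required and 88.5% over Sham lists only. That of lost windows was 100% for 5 kb windows and at 10000 peaks, 99.5% at equal length, 94.1% with 2 lists and 96.7% over Sham lists. The last setting of each, equal covered length for these shares, and the maxScore fit were chosen after seeing the data.

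For tag counts, cut lists gave 1252 elements lower, median centring 0 higher and 0 lower, the more tagged elements alone 0 and 0, and no normalisation 11344 and 4. The replicate block gave 0 higher and 859 lower by tag count, 1100 and 678 by maxScore, and 0 wider and 0 narrower, as without the block. Median centring gave 748 elements lower by maxScore. By width, the more tagged elements alone gave 1232 wider and 11 narrower. The cause of these changes was not tested, apart from the ties in tag counts. With 2 pools a group no exact test could pass 0.05, and the part of sequencing depth, unknown here, in the differences was not tested.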
